A study of Mus musculus with 6 samples.

Results

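The hair cell transcription factors described here are *Pou4f3* and 8 genes that act around it, *Lhx3*, *Gfi1*, *Atoh1*, *Barhl1*, *Ikzf2*, *Insm1*, *Tbx2* and *Rfx3*. They were taken by gene symbol, as 9 of the 51802 symbols in the tables, and hold 34 of the 128603 listed transcripts. The rule that picks them uses the symbols and their known roles in hair cells, and no measured value. RNA from cochleae of mice at 2 months of age was sequenced in bulk, with 3 wildtype samples (replicates 3, 4 and 5) and 3 *Pou4f3(Δ/+)* samples (replicates 1, 2 and 3). Both groups had the strain background given as C57/BL6J. The *Pou4f3(Δ/+)* mice carried 1 knock-in *Pou4f3* allele with a small deletion that shifts the reading frame. A C-to-T change on the same allele supplied the premature stop codon, which truncates the protein. The mice kept 1 wildtype allele, as in the dominant human deafness DFNA15. The mutation is present in every cell of the animal rather than in hair cells alone, and the line was made through targeted embryonic stem cells. For each gene the expected counts (estimated numbers of sequenced fragments) and the FPKM (fragments divided by the length of the transcript and by the sequencing depth) were summed over its transcripts. Summed counts per sample ranged from 14295069 to 17696784. Nothing in the sources tells whether each sample came from its own animal, so p-values measure the spread between these samples.

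Hair cells are the sensory cells of the cochlea and turn sound-driven bending of their stereocilia into transmitter release onto the auditory nerve. *Atoh1* starts the hair cell programme in the embryo, and *Pou4f3*, a POU-domain factor, is needed for hair cells to mature and survive. *Gfi1* and *Lhx3* act downstream of it, *Barhl1* supports long-term hair cell survival, *Ikzf2* and *Insm1* serve outer hair cell identity, *Tbx2* serves inner hair cell identity, and *Rfx3*, with other Rfx factors, serves the survival of hair cells. Hair cells are a small share of the cells in a cochlea, and in bulk RNA fewer cells of a type and less RNA per cell cannot be told apart.

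*Gfi1* was the only member whose reads were spread over several abundant transcripts with different starts, so the start of each is shown here. *Gfi1* (ENSMUSG00000029275) lies on the minus strand of chromosome 5 from 107716657 to 107726036 in the GENCODE M21 annotation of GRCm38. The first exon of Gfi1-201 spans 107723724 to 107724343 (620 bases), that of Gfi1-203 spans 107725561 to 107725805 (245 bases), and that of Gfi1-204 spans 107725955 to 107726036 (82 bases). The first 30 bases of each transcript, 5′ to 3′ in the GENCODE M21 transcript sequences, follow in that order. The fourth transcript, Gfi1-202, begins with the same exon as Gfi1-203.
Gfi1-201: ctccaagccccttccgggtcccaaacactg
Gfi1-203: aagcggtggagcgaaagatctggaatagag
Gfi1-204: agagagacagatcagtctctcccgaaagca

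The 250 bases before the Gfi1-201 start (chr5:107724344-107724593, minus strand, RefSeq promoter table, GRCm38.p6) overlapped 0 annotated *Gfi1* exons and lay inside introns of Gfi1-202, Gfi1-203 and Gfi1-204. The window is shown because Gfi1-201 led in 1 sample, as described with the values. The capitals mark its 1 match to the E-box CANNTG, the general form of the letters that basic helix-loop-helix factors bind.
Window before Gfi1-201: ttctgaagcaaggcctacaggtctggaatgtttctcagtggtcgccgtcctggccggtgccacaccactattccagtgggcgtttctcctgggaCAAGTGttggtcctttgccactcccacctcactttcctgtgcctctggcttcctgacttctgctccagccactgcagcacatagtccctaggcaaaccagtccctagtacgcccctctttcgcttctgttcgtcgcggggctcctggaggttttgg
CANNTG reads the same on both strands and occurs in 66.2% of the 32851 windows of this length in the table, so 1 match is a common property of such windows.

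In the wildtype and mutant cochleae together the members fell into 4 tiers of level. *Tbx2* and *Gfi1* stood at means of 15.8 and 13.9 FPKM over the 6 samples, *Rfx3*, *Ikzf2* and *Pou4f3* at 2.26, 2.13 and 1.95, *Barhl1* and *Lhx3* at 0.315 and 0.293, and *Atoh1* and *Insm1* at 0.010 and 0.0033. Of the 8 neighbouring pairs in this order, 4 kept their order in 6 of 6 samples, which were *Tbx2* over *Gfi1*, *Gfi1* over *Rfx3*, *Pou4f3* over *Barhl1* and *Lhx3* over *Atoh1*. *Tbx2* exceeded *Gfi1* by 0.19 ± 0.13 (SD, n = 6) in log2 FPKM (pseudocount 0.05), and by 0.54 ± 0.14 when counts per kilobase of the longest spliced transcript were used. The steps from *Gfi1* to *Rfx3* and from *Pou4f3* to *Barhl1* were 2.58 and 2.47 in log2 FPKM, and no size is given for the step to *Atoh1*, which was at 0 in 5 of 6 samples. The order of *Lhx3* over *Atoh1* is therefore one against counts of 0, in wildtype replicate 3 of 1 count against 0, and was not detectable as a difference there. An exact two-sided sign-flip test over 6 samples cannot go below p = 0.0312, and each of the 4 pairs had this value, which became 0.0625 after Benjamini-Hochberg adjustment over the 8 pairs. For *Lhx3* over *Atoh1* nothing is read from this p. *Rfx3* over *Ikzf2*, *Ikzf2* over *Pou4f3* and *Barhl1* over *Lhx3* did not differ beyond their spread, with adjusted exact sign-flip p from 0.5 to 0.679. *Atoh1* and *Insm1* were each at 0 in 5 of 6 samples, so the test of that pair could not show a difference and nothing is read from it. *Rfx3*, *Ikzf2* and *Pou4f3* thus had no settled order among themselves, with *Rfx3* above *Ikzf2* in 3 of 6 samples and *Ikzf2* above *Pou4f3* in 5 of 6.

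**Figure D1:**
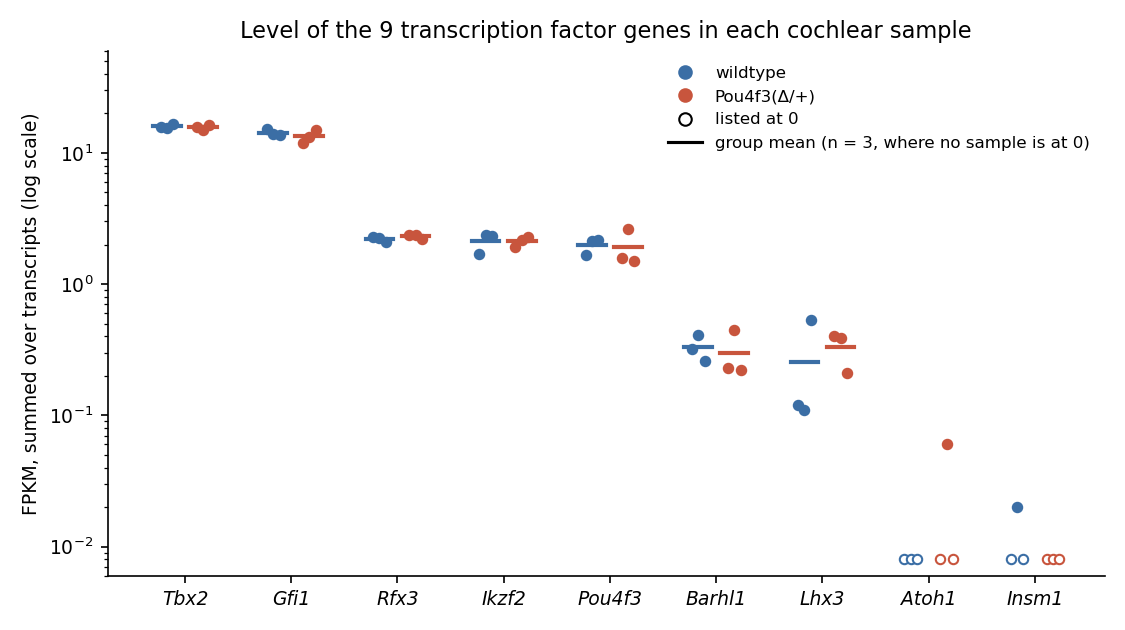
FPKM of each member on a log axis, summed over its transcripts, with 1 point per sample (blue, wildtype; red, *Pou4f3(Δ/+)*), open circles for samples listed at 0 and bars for group means of 3 samples. *Tbx2* and *Gfi1* sit between 11.9 and 16.7 FPKM, *Rfx3*, *Ikzf2* and *Pou4f3* between 1.50 and 2.65, and the red and blue points of each gene overlap.

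*Pou4f3* itself was listed with a single transcript, Pou4f3-201 (ENSMUSG00000024497, plus strand of chromosome 18, 42394539 to 42397249, 2 exons). Reads of the intact and the mutated allele were not counted apart. *Pou4f3* had 1.67, 2.13 and 2.17 FPKM in wildtype replicates 3, 4 and 5 and 1.58, 2.65 and 1.50 FPKM in *Pou4f3(Δ/+)* replicates 1, 2 and 3. The mutant samples thus held both the highest and the 2 lowest values, and the groups overlapped. The mean was 1.99 ± 0.28 FPKM (SD, n = 3) in wildtype and 1.91 ± 0.64 (n = 3) in *Pou4f3(Δ/+)*. In edgeR's quasi-likelihood test the log2 fold change, given throughout with its standard error (SE), was -0.06 (SE 0.27, adjusted p = 0.966). Its 95% confidence interval, -0.67 to 0.56, placed the summed *Pou4f3* RNA of the mutant between 62.8% and 147% of wildtype. The coefficient of variation of the CPM (counts scaled to the library total after TMM normalization) was 13.8% among the wildtype samples and 35.0% among the *Pou4f3(Δ/+)* samples. *Pou4f3(Δ/+)* replicate 2, with 97 counts, carried much of that spread, and without it the log2 fold change was -0.38. The sign of this estimate was not stable, since it was 0.02 without wildtype replicate 5, 0.07 without *Pou4f3(Δ/+)* replicate 1 and 0.10 without *Pou4f3(Δ/+)* replicate 3. These totals do not separate the alleles and so give no check of the genotype labels.

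*Gfi1*, a zinc finger repressor needed by outer hair cells and also by developing granulocytes and lymphocytes, had 15.30, 13.87 and 13.69 FPKM in wildtype replicates 3, 4 and 5. The *Pou4f3(Δ/+)* values were 11.92, 13.30 and 15.04 FPKM in replicates 1, 2 and 3. The lowest value was mutant and the highest was wildtype, but the ranges overlapped, with a log2 fold change of -0.13 (SE 0.10, adjusted p = 0.752, edgeR). Its interval ran from -0.37 to 0.10, or 77.3% to 107% of wildtype. Blood cell RNA was abundant in the same samples. The 11 neutrophil and granulocyte markers summed to between 14753 and 17356 FPKM in wildtype and between 14869 and 17772 FPKM in *Pou4f3(Δ/+)*, with none at 0, while the 23 hair cell effector genes summed to between 84.5 and 98 FPKM in the 6 samples. These sums rest mostly on *S100a9*, *S100a8* and *Ngp*, and 8 of the 11 markers had estimates below 0. Of the 11, 0 were called and 1 had an unadjusted p under 0.05 (edgeR), beside 7.64% of all genes tested. The granule protease gene *Elane* had 588.6, 459.5 and 423.5 FPKM in wildtype replicates 3, 4 and 5 and 325.6, 389.2 and 538.5 FPKM in *Pou4f3(Δ/+)* replicates 1, 2 and 3. Its samples stood in the same order as those of *Gfi1* in FPKM, as did those of *Prtn3* and *Mpo*, other genes of granulocyte precursors, but not those of the other 8 markers. In the CPM used for the test the *Gfi1* samples stood in another order. There *Gfi1* had 31.6 in *Pou4f3(Δ/+)* replicate 2 and 31.0 in replicate 3, the reverse of their order in FPKM. The log2 fold changes were -0.24 (SE 0.18) for *Elane*, -0.33 (SE 0.20) for *Prtn3* and -0.40 (SE 0.17) for *Mpo*, with adjusted p = 0.753, 0.691 and 0.643 (edgeR). Estimates of other markers were above 0, at 0.26 for *Retnlg*, 0.17 for *S100a9* and 0.12 for *S100a8*, or at -0.00 for *Camp*. The part of granulocytes in the *Gfi1* level was not tested, and these 3 genes were chosen after their values were seen. Counts for A430072P03Rik, which overlaps *Gfi1* on the other strand, ranged from 9 to 19 per sample against 449 to 600 for *Gfi1*, and the library kit is not stated to keep the strand.

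The Gfi1 total was divided mainly among 3 transcripts, and the split differed between samples more than the total did. Gfi1-203 led, with 8.54, 9.96 and 9.20 FPKM in wildtype replicates 3, 4 and 5 and 3.67, 8.45 and 7.86 FPKM in *Pou4f3(Δ/+)* replicates 1, 2 and 3. Gfi1-201 had 3.45, 0.89 and 1.73 FPKM in wildtype and 5.05, 2.47 and 2.61 FPKM in *Pou4f3(Δ/+)*, and was the higher of the pair in *Pou4f3(Δ/+)* replicate 1 but in no other sample. Gfi1-204 stayed between 2.38 and 4.57 FPKM. In *Pou4f3(Δ/+)* replicate 1, Gfi1-203 held 36.8% of the *Gfi1* counts (95% Wilson interval 32.6% to 41.3%), below every other sample. The next lowest share was 65.1% (61.1% to 68.7%) in wildtype replicate 3 and the highest was 83.9% (80.3% to 87.1%) in wildtype replicate 4. The intervals cover counting error only, and the counts of a transcript are estimates in which reads from shared exons are divided.

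As a share of *Gfi1* FPKM, Gfi1-203 made up 64.9 ± 8.2% (SD, n = 3) in wildtype and 48.9 ± 16.6% (n = 3) in the mutant. The difference of -16.1 percentage points did not pass an exact two-sided permutation test (p = 0.2, where 3 against 3 cannot go below 0.1, and 1.0 after adjustment over 5 genes). Without *Pou4f3(Δ/+)* replicate 1 the difference was -7.05 points, and the groups overlapped. Leaving out wildtype replicate 3 moved the difference to -20.6 points and leaving out *Pou4f3(Δ/+)* replicate 2 to -23.4 points, and the groups then no longer overlapped. At the transcript level, the log2 fold change was -0.47 (SE 0.31) for Gfi1-203 and 0.72 (SE 0.53) for Gfi1-201, with adjusted p = 0.999 for both (edgeR). Without *Pou4f3(Δ/+)* replicate 1 the log2 fold change of Gfi1-203 was -0.18, so this sample decided much of its size, and over the samples left out in turn Gfi1-201 ranged from 0.32 to 1.33.

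**Figure D2:**
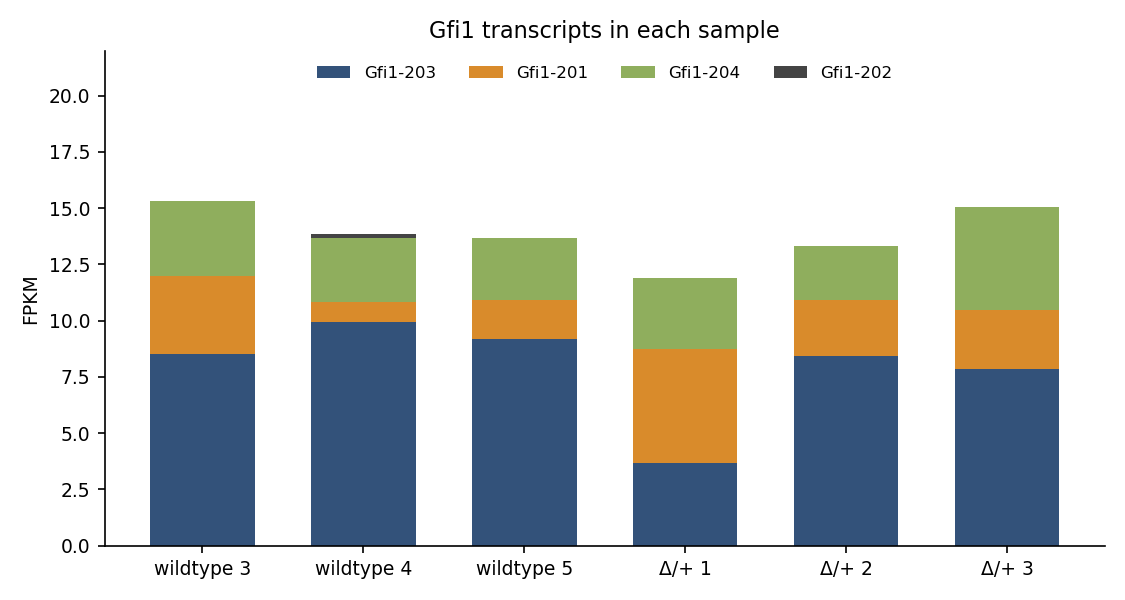
FPKM of the 4 annotated *Gfi1* transcripts, stacked for each of the 3 wildtype and 3 *Pou4f3(Δ/+)* (Δ/+) samples. Gfi1-203 is the largest part in 5 samples, and in Δ/+ 1 it drops to 3.67 FPKM while Gfi1-201 reaches 5.05 FPKM.

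*Lhx3*, a LIM-homeodomain factor of hair cells and motor neurons, sat near the detection limit. Wildtype replicates 3, 4 and 5 held 1, 3 and 13 of its counts, *Pou4f3(Δ/+)* replicates 1, 2 and 3 held 8, 13 and 3, and the gene did not pass edgeR's filter on low counts. In a fit without the filter, over 27491 genes, its log2 fold change was 0.53 (SE 0.79, adjusted p = 0.855, edgeR), with an interval from -1.13 to 2.19 that holds both a halving and a doubling. The few reads also went to different transcripts in different samples. In wildtype replicate 5 the protein-coding Lhx3-202 received 10.97 counts, in *Pou4f3(Δ/+)* replicate 2 the protein-coding Lhx3-201 received 8.90, and in the other 4 samples the reads went to the retained-intron transcripts Lhx3-203 and Lhx3-204. In wildtype replicate 3, 1 count on the short Lhx3-204 (494 bases) gave 0.12 FPKM, as much as 3 counts on Lhx3-203 (1982 bases) gave in wildtype replicate 4 (0.11 FPKM). The overlapping opposite-strand gene Gm27196 had 1.00 to 8.03 counts, while *Lhx3* had 1 to 13, and without strand reads from positions that both genes cover cannot be told apart.

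*Atoh1* and *Insm1* were not detectable at this depth. *Atoh1*, a helix-loop-helix factor, had 2 counts in *Pou4f3(Δ/+)* replicate 2 and 0 in the other 5 samples. *Insm1*, a zinc finger factor of nascent outer hair cells and endocrine cells, had 1 count in wildtype replicate 4 and 0 elsewhere. Counts of 0 still allow up to 3 counts in a sample, which is 0.0799 to 0.0989 FPKM for *Atoh1* and 0.0547 to 0.0677 FPKM for *Insm1*, and no fold between the groups is given for either gene.

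*Barhl1*, a homeobox factor, had 0.32, 0.41 and 0.26 FPKM in wildtype replicates 3, 4 and 5 and 0.23, 0.45 and 0.22 FPKM in *Pou4f3(Δ/+)* replicates 1, 2 and 3. These values rest on 8 to 16 counts per sample and overlapped between the groups. The log2 fold change was -0.02 (SE 0.45, adjusted p = 0.992, edgeR), and the interval from -1.05 to 1.01 left room for a change of about 2-fold either way. Its reads were divided among Barhl1-201, Barhl1-203, Barhl1-204 and Barhl1-205, which held 25.9%, 27.0%, 36.5% and 10.6% of its summed FPKM. No transcript led in every sample, and Barhl1-204, a processed transcript without a coding sequence, went from 0% of the gene's FPKM in *Pou4f3(Δ/+)* replicate 3 to 57.7% in wildtype replicate 5.

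*Ikzf2*, which encodes the zinc finger factor Helios of outer hair cells and of some T cells, had 1.71, 2.35 and 2.33 FPKM in wildtype replicates 3, 4 and 5. In *Pou4f3(Δ/+)* replicates 1, 2 and 3 it had 1.93, 2.17 and 2.29 FPKM, inside the wildtype range. The log2 fold change was -0.02 (SE 0.13, adjusted p = 0.979, edgeR; interval -0.30 to 0.27). Of its 9 transcripts 7 were above 0 in some sample, but Ikzf2-201 (9278 bases, 8 exons) held 84.7% to 100% of the FPKM and 96.1% to 100% of the counts of a sample. Genes that overlap *Ikzf2*, Gm28112, Gm29112 and Gm29114, had at most 3 counts in a sample.

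*Tbx2*, a T-box repressor, was the most abundant member and the steadiest. It had 15.66, 15.47 and 16.65 FPKM in wildtype replicates 3, 4 and 5 and 15.68, 14.86 and 16.32 FPKM in *Pou4f3(Δ/+)* replicates 1, 2 and 3, all on its single transcript. With 802 to 1037 counts per sample, the coefficient of variation of the normalised counts was 4.57% in wildtype and 3.26% in *Pou4f3(Δ/+)*. The log2 fold change of -0.03 had the narrowest interval of the members, from -0.20 to 0.14 (SE 0.08, adjusted p = 0.933, edgeR). *Tbx2* is also known from other cells of the cochlea, among them melanocytes, and the part of each cell type in its level was not tested. The 6 melanocyte markers summed to 167 to 203 FPKM in wildtype and 172 to 189 FPKM in *Pou4f3(Δ/+)*.

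*Rfx3*, a regulator of cilia genes, had 2.28, 2.24 and 2.09 FPKM in wildtype replicates 3, 4 and 5 and 2.38, 2.37 and 2.22 FPKM in *Pou4f3(Δ/+)* replicates 1, 2 and 3. It was the only member with a positive change among those that passed the filter, at a log2 fold change of 0.08 (SE 0.10, adjusted p = 0.848, edgeR; interval -0.16 to 0.32). Rfx3-202 (9146 bases, 18 exons) carried 93.3% to 97.8% of its FPKM, and 4 of its 8 transcripts were at 0 in all samples. The 7 motile ciliated cell markers in the tables, which would mark respiratory-type cells of the middle ear, summed to 7.34 to 13.3 FPKM in wildtype and 6.45 to 11.5 FPKM in *Pou4f3(Δ/+)*, with none at 0.

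Across the members, 6 of 9 passed the count filter and 0 of these 6 had an adjusted p under 0.05, where edgeR called 0 of 17136 genes (0.0%). At an unadjusted p under 0.05 edgeR also gave 0 of 6 members, beside 7.64% of all genes tested. DESeq2 called 0 members, beside 0.373% of all genes called. The groups overlapped for each of the 6, whereas 12.7% of all genes tested had groups that did not. The median log2 fold change was -0.03 for the 6 members and -0.00 for all genes tested. In the fit of all samples the interval did not reach a halving for 5 of the 6, with *Barhl1* the exception. With samples left out in turn, Pou4f3-201, the only *Pou4f3* transcript, ranged from -0.39 (SE 0.28, without *Pou4f3(Δ/+)* replicate 2) to 0.09 in edgeR. Of 28 member transcripts above 0, 7 passed the filter and 0 were called by edgeR (0.0% of 38347 transcripts), 0 at an unadjusted p under 0.05 (4.14% of transcripts). DESeq2 called 0 of the 7, beside 0.339% of transcripts.

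**Figure D3:**
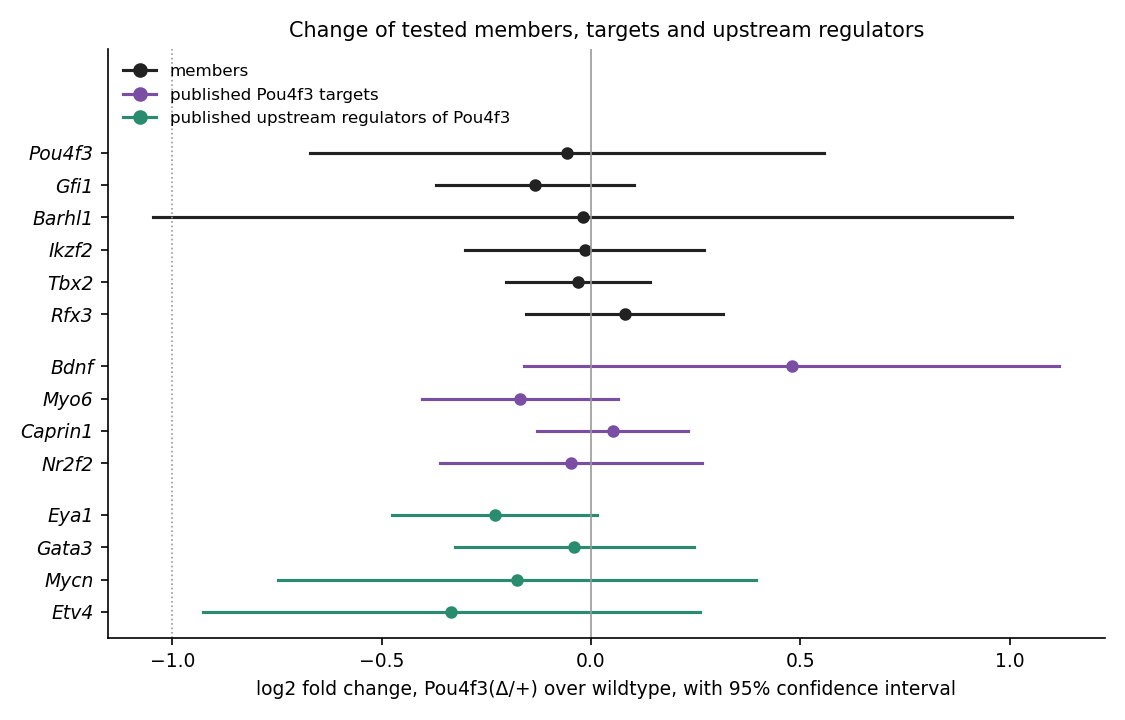
Log2 fold change of *Pou4f3(Δ/+)* over wildtype with its 95% confidence interval for the 6 members tested (black), the published *Pou4f3* targets not among them (purple) and 4 published upstream regulators (green). Each interval holds 0 (solid line), and only that of *Barhl1* reaches a halving (dotted line).

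The members were also set against 22 hair cell effector genes of the same sample, a measure chosen after the data were seen. *Pou4f3* lay 0.68 ± 0.12 (SD, n = 3) below the median effector gene in wildtype and 0.85 ± 0.51 (n = 3) below it in the mutant, in log2 CPM. The difference of -0.18 was within the spread (exact permutation p = 0.6). For *Gfi1* the difference was -0.21 (exact permutation p = 0.2) and for *Tbx2* -0.11 (exact permutation p = 0.1, the lowest 3 against 3 allows). After adjustment over the 6 members p was 0.6 to 1.0.

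The hair cell effector genes build the hair bundle, the transduction channel and the synapse. Of 23 genes 22 were tested, 0 were called and 0 had an unadjusted p under 0.05 (edgeR), with 12 higher, 10 lower and a median log2 fold change of 0.07. *Ocm*, the calcium buffer oncomodulin of outer hair cells, had the highest level at 22.6 to 28.8 FPKM over the samples, followed by *Cib2*, a subunit of the transduction complex, at 11.3 to 15.9 FPKM. The smallest p values belonged to 2 other transduction genes, *Tmie* (log2 fold change 0.30, SE 0.14, adjusted p = 0.647, edgeR) and *Tmc1* (0.33, SE 0.21, adjusted p = 0.703). With the exception of *Grxcr1*, at 3 to 9 counts, each effector gene passed the filter, and *Ocm* had 199 to 281 counts in each of the 6 samples.

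Among the 7 published *Pou4f3* targets, which include *Gfi1* and *Lhx3*, 5 were tested, 0 were called and 0 had an unadjusted p under 0.05, with a median log2 fold change of -0.05. *Bdnf*, a neurotrophin for the auditory nerve, had 0.36 to 0.54 FPKM in wildtype and 0.57 to 0.82 FPKM in *Pou4f3(Δ/+)*, so its groups did not overlap, here or in CPM. In CPM this was so for 1 of the 5 tested targets, beside 12.7% of all genes tested. The log2 fold change of *Bdnf*, 0.48 (SE 0.28), did not pass (adjusted p = 0.679, edgeR). *Myo6*, a motor of the stereocilia base, had a log2 fold change of -0.17 (SE 0.10, adjusted p = 0.691), and *Caprin1*, an RNA-binding protein and the most abundant target at 128 to 146 FPKM, one of 0.05. The *Myo6* groups did not overlap in FPKM, at 29.6 to 39.8 in wildtype and 26.6 to 28.9 in *Pou4f3(Δ/+)*, but overlapped in CPM. *Ntf3*, another neurotrophin, had 1, 2 and 5 counts in the wildtype samples and 8, 11 and 6 in the mutant samples. Its groups did not overlap, and it was below the count filter and not tested.

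The 6 published upstream regulators of *Pou4f3* include *Atoh1*, and the other 5 were tested with 0 called and 0 at an unadjusted p under 0.05. All 5 had estimates below 0, with a median of -0.18. *Eya1* had a log2 fold change of -0.23 (SE 0.11, adjusted p = 0.647, edgeR) at 14.5 to 20.1 FPKM. *Etv4*, an effector of fibroblast growth factor signalling, had a log2 fold change of -0.33 (SE 0.26, adjusted p = 0.754).

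Members stood in different places within their gene families. *Pou4f3* was level with its paralogues *Pou4f1* and *Pou4f2*, factors of sensory and retinal neurons, which had 1.87 to 2.59 and 1.82 to 2.22 FPKM. *Pou4f2* had 1.97, 2.10 and 2.22 FPKM in wildtype and 1.82, 1.91 and 1.85 FPKM in *Pou4f3(Δ/+)*, without overlap, but its log2 fold change of -0.17 (SE 0.16) did not pass (adjusted p = 0.792, edgeR). *Gfi1b*, the erythroid and megakaryocyte paralogue of *Gfi1*, was as abundant as *Gfi1*, with 9.84 to 14.5 FPKM in wildtype and 14.4 to 18.5 FPKM in *Pou4f3(Δ/+)*. *Ikzf2* lay below the lymphoid *Ikzf1* at 30.1 to 44.9 FPKM, *Ikzf5* at 12.7 to 16.2 FPKM and *Ikzf3* at 7.02 to 16.1 FPKM, and above *Ikzf4* at 0.97 to 1.45 FPKM. *Rfx3* was below *Rfx1*, *Rfx2*, *Rfx5* and *Rfx7*, which ranged from 4.07 to 11.8 FPKM. *Rfx4* at 0.12 to 0.56 FPKM and *Rfx8* at 0.03 to 0.14 FPKM were lower than *Rfx3*. *Tbx2* exceeded its close paralogue *Tbx3*, at 2.72 to 3.56 FPKM, in each sample. The more distant T-box gene *Tbx1* was above *Tbx2* in each sample at 16.3 to 21.4 FPKM, and *Tbx18* had 13.0 to 17.4 FPKM. *Lhx4* and *Barhl2* were at 0 in all samples and *Rfx6* had 1 count in all.

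Of the 20 paralogues 14 were tested and 0 were called by edgeR or DESeq2, with a median log2 fold change of 0.07. In CPM the groups did not overlap for 2 of the 14, beside 12.7% of all genes tested. An unadjusted p under 0.05 was found for 3 of the 14 (edgeR), beside 7.64% of all genes tested. These 3 were genes of blood cells, *Ikzf1* (0.29, SE 0.10), *Ikzf3* (0.64, SE 0.23) and *Gfi1b* (0.42, SE 0.16), each with adjusted p = 0.643 (edgeR). *Ikzf3* had 16.07 and 13.60 FPKM in *Pou4f3(Δ/+)* replicates 1 and 2 but 7.82 in replicate 3, within the wildtype range of 7.02 to 8.69. Without replicate 3 it was called, at 0.89 (adjusted p = 0.027, edgeR). Markers of the same lineages differed in the same direction without passing the test in edgeR. The 9 B cell markers summed to 134 to 161 FPKM in wildtype and to 274, 318 and 170 FPKM in *Pou4f3(Δ/+)* replicates 1, 2 and 3. The 7 erythroid markers summed to 4930 to 5687 FPKM in wildtype and to 6893, 7523 and 5634 FPKM in those replicates, with none at 0 in either list. Their part in the values of the 3 paralogues was not tested.

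**Figure D4:**
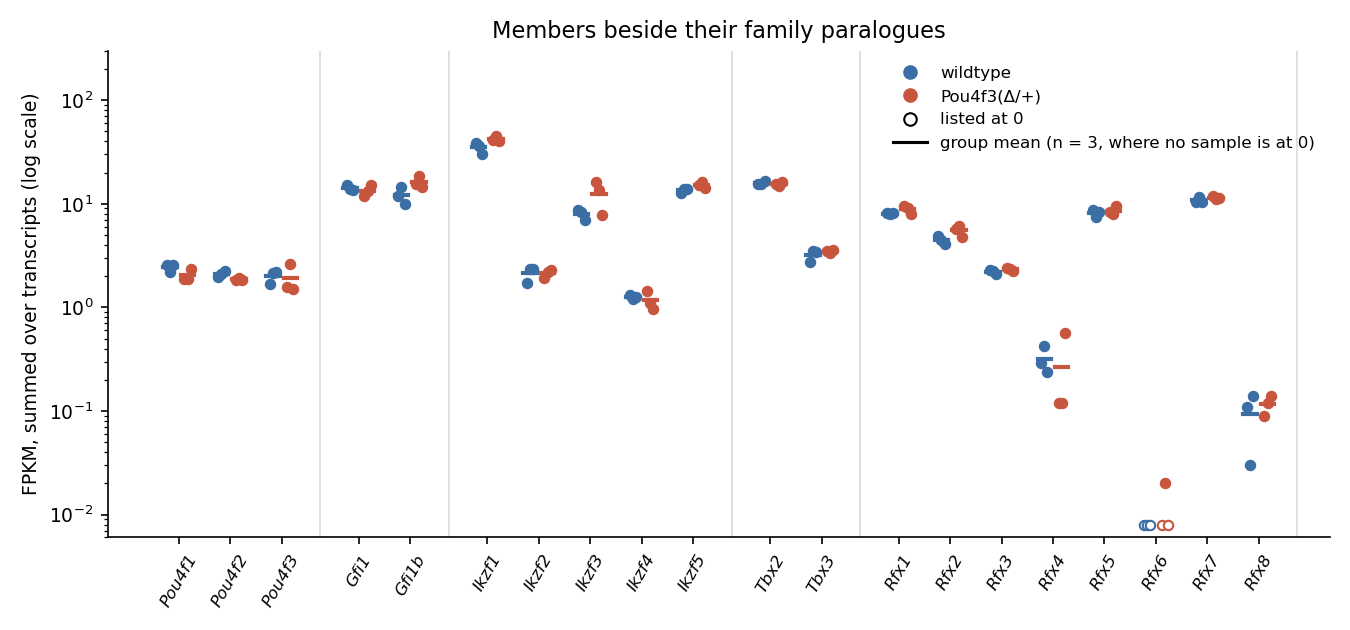
FPKM on a log axis for members and paralogues of 5 families, with 1 point per sample (blue, wildtype; red, *Pou4f3(Δ/+)*), open circles for samples listed at 0 and bars for group means. *Pou4f3* overlaps *Pou4f1* and *Pou4f2*, while *Ikzf2* (1.71 to 2.35 FPKM) lies below *Ikzf1*, *Ikzf3* and *Ikzf5*.

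Of 24 other inner ear transcription factors 19 were tested and 0 were called, with 6 higher, 13 lower and a median of -0.10. An unadjusted p under 0.05 was found for 2 of the 19 (edgeR), beside 7.64% of all genes tested. *Mitf*, the melanocyte regulator, had a log2 fold change of -0.26 (SE 0.09) with adjusted p = 0.643 (edgeR). *Lmo4* had the highest level at 65.2 to 81.3 FPKM, and *Sox10* followed at 28.1 to 33.6 FPKM. The embryonic factors *Neurog1*, *Neurod1*, *Nhlh1*, *Nhlh2* and *Hes5* had at most 6 counts in a sample and, like *Atoh1*, were not tested.

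The markers of other cells in the sample give a scale for these values. Each tested lymphocyte and red cell marker had an estimate above 0 in *Pou4f3(Δ/+)* against wildtype, with median log2 fold changes of 0.88 over 9 B cell markers, 0.86 over 10 tested T and natural killer cell markers and 0.37 over 7 erythroid markers. edgeR called 0 of them, with 8, 4 and 2 at an unadjusted p under 0.05, while DESeq2 called 5, 1 and 1. Over all genes tested, 7.64% had such an unadjusted p in edgeR and DESeq2 called 0.373%. The T and natural killer cell markers summed to 13.8 to 15.4 FPKM in wildtype and to 30.1, 36.3 and 13.6 FPKM in *Pou4f3(Δ/+)* replicates 1, 2 and 3, so 2 of the 3 mutant samples stood apart. *Vpreb3*, a B cell precursor gene, had a log2 fold change of 1.06 (SE 0.24) and *Hbb-bt*, a beta globin, one of 0.47 (SE 0.11), both with adjusted p = 0.643 (edgeR). Medians were -0.11 for 11 neutrophil and granulocyte markers, -0.16 for 8 spiral ganglion neuron markers, -0.17 for 5 tested melanocyte markers, 0.06 for 9 supporting cell markers, 0.12 for 7 motile ciliated cell markers and -0.11 for 8 bone markers, with 0 called by either tool and 1 neutrophil and 3 bone markers at an unadjusted p under 0.05 in edgeR. Without both *Pou4f3(Δ/+)* replicates 1 and 2, the log2 fold change of *Pou4f3* was -0.43 and that of *Gfi1* was -0.07, each on a single mutant sample assumed to vary like the others, and neither passed.

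**Figure D5:**
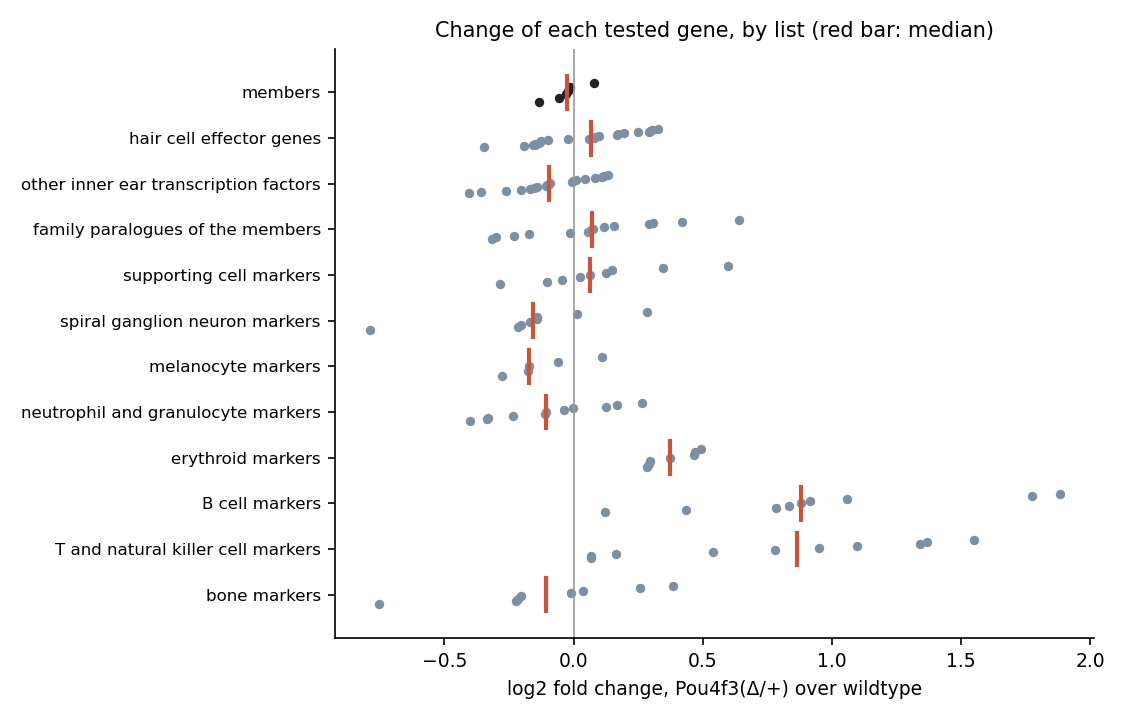
Log2 fold change of *Pou4f3(Δ/+)* over wildtype for each tested gene (points) of the members and 11 other lists, with red bars at the medians. The 6 members lie between -0.13 and 0.08, while the B cell median is 0.88 and the T and natural killer cell median 0.86.

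The genes whose log2 CPM most resembled *Pou4f3* over the 6 samples, among 14803 with a mean FPKM of at least 1, were *Btbd10*, *Tfg*, *Arfip2*, *Tram2* and *Mlf2*, with Pearson's r from 0.97 to 0.99 and Spearman's rho from 0.94 to 1.00. With 6 points and this many candidates, 68 genes had r above 0.9, and the points share their library and its depth. No member was among the 5. The correlation with *Pou4f3* was 0.37 for *Barhl1* and *Ikzf2*, 0.23 for *Gfi1*, 0.20 for *Rfx3* and -0.33 for *Tbx2* (Pearson's r, n = 6, as a description).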

How the data were processed

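Bulk RNA-seq of 3 wildtype and 3 *Pou4f3(Δ/+)* cochlear samples was used. Per transcript, the authors deposited expected counts, which are estimates and not normalized, and FPKM values, scaled to transcript length and to the summed counts of the sample. The aligner and counter are not given in the sources used here. The submitters' processing notes name the mouse build mm8 and DESeq2. All 34 member transcript IDs were found in GENCODE M21, from which coordinates were taken. Member sums were whole in 54 of 54 cases (tolerance 0.01), whereas 74 of 107 member transcript values above 0 were not.

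Counts were summed per symbol, rounded, filtered with filterByExpr (minimum count 10, minimum total 15), TMM-normalized and tested with edgeR 4.0.16 in R 4.3.3, with Benjamini-Hochberg adjustment over all features and a threshold of 0.05. Standard errors are the log2 fold change over the root of the F statistic. Shares and levels were tested by exact permutation in SciPy 1.17.1. Scripts were checked on simulated data. Alternatives were DESeq2 1.42.0, its size factors, limma 3.58.1 on log2 FPKM, other filters, protein-coding transcripts only and samples left out. Members and lists were chosen with earlier results of these data known. Named were all members, their transcripts with at least 10% of the gene's FPKM, and of each other list the 2 highest and the 2 with the smallest p, except that marker lists of other cells are given by their totals. Some items that this rule selects are not reported here. Other genes named were chosen after their values were seen.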

Additional observations from a re-analysis of the deposited data

How the results depend on the processing

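Under each alternative, including an adjusted p threshold of 0.1, 0 members were called, and the median log2 fold change of the members stayed between -0.10 and 0.06. Member transcripts called were also 0 under each alternative run for transcripts, which leaves out that of protein-coding transcripts only. Across 88 refits of single members, 17 had the other sign and the smallest adjusted p was 0.498. With single samples left out, log2 fold changes ranged from -0.38 to 0.10 for *Pou4f3*, -0.18 to -0.06 for *Gfi1*, -0.29 to 0.28 for *Barhl1*, -0.10 to 0.049 for *Ikzf2*, -0.053 to 0.0063 for *Tbx2* and 0.04 to 0.13 for *Rfx3*. The *Pou4f3* estimate was 0.02 without wildtype replicate 5, 0.07 without *Pou4f3(Δ/+)* replicate 1 and 0.10 without *Pou4f3(Δ/+)* replicate 3. *Ikzf2* was at 0.0074, 0.010 and 0.0052 with limma on log2 FPKM with pseudocounts of 0.5, 0.1 and 1. Without both *Pou4f3(Δ/+)* replicates 1 and 2, *Ikzf2* was at 0.091, *Tbx2* at 0.014 and *Rfx3* at -0.012. The number of genes with non-overlapping leading transcript shares was 0, and 0 to 2 with single samples left out (*Gfi1* without wildtype replicate 3, *Rfx3* without wildtype replicate 4, *Gfi1* and *Barhl1* without *Pou4f3(Δ/+)* replicate 2). Of the genes in the other lists edgeR called 0, DESeq2 called 7, and edgeR called 0 to 10 with single samples left out, 10 without *Pou4f3(Δ/+)* replicate 3. The cause of these differences was not tested. Over all genes the calls were 0 in edgeR, 64 in DESeq2 and 193 in edgeR without *Pou4f3(Δ/+)* replicate 3. The 4 pairs that kept their order in every sample were 4 by counts per kilobase and 4 to 5 with single samples left out. No paired analysis was run, because the labels do not pair wildtype with mutant samples. Depth limits *Barhl1*, *Lhx3*, *Atoh1* and *Insm1*.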
